A study of Mus musculus with 15 samples.

Results

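Border-associated macrophages are the resident macrophages of the meninges, the perivascular spaces and the choroid plexus, and the 9 genes Mrc1, Cd163, Lyve1, Folr2, Pf4, F13a1, Cbr2, Stab1 and Clec10a are commonly used as their markers. Their rows were picked by gene symbol alone. The 9 genes themselves were chosen with earlier results of these data known. All 9 were found, each as a single row, among the 38924 genes listed for every library. All 9 also passed the filter on low values. That filter, at least 1 cpm in 2 or more of the 15 libraries, left 14967 genes to test. For the filter cpm were counts scaled to the library total before normalization, and elsewhere to the normalized library total.

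Border-associated macrophages sit where blood or cerebrospinal fluid meets the brain, take up material from those fluids, and carry many endocytic and scavenger receptors that microglia of the parenchyma carry at low levels. In flow cytometry they are generally found with more surface CD45, the leukocyte phosphatase encoded by Ptprc, than microglia. A gate on high CD45 can therefore hold them beside monocytes, neutrophils and other leukocytes. The 9 genes fall into endocytic receptors and lectins (Mrc1, Cd163, Stab1, Lyve1, Clec10a and Folr2), secreted or coagulation proteins (Pf4 and F13a1) and an enzyme (Cbr2).

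The libraries were made from CD11b+ brain cells parted by FACS into cells with high (CD45hi) and low (CD45lo) surface CD45. The mice were wild type C57BL/6J males killed at 12 months of age, and both diet groups shared this strain, genotype and age. There were 4 CD45hi and 4 CD45lo libraries from mice kept on a control chow diet, and 3 CD45hi and 4 CD45lo libraries from mice fed a western diet (WD) from 2 months of age. Brains were perfused, the olfactory bulb and cerebellum were removed, and CD3e+ cells were gated out. Whether meninges and choroid plexus were kept is not stated in the sources used here, and no marker of border-associated macrophages was used in the sort.

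Library totals ran from 11951412 to 17912272 expected counts. A floor of 3 counts was therefore 0.156 to 0.282 cpm. Ptprc, the gated protein, was 2.22-fold higher in CD45hi than in CD45lo cells on chow and 2.94-fold higher on the WD, with no overlap between the libraries. The library WD CD45hi replicate 1 stood apart for these markers, as described after the comparison of the cell types, and results that rest on it are also given without it. Mitochondrially encoded genes took 17.7 to 20.5% of the counts in the 7 CD45hi libraries and 8.0 to 10.9% in the 8 CD45lo libraries. That difference moved with every comparison of the cell types, and its part in them was not tested.

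On mm10 the 9 genes lie on 7 chromosomes (GENCODE M21 coordinates). Mrc1 is at chr2:14229392-14332057, Cd163 at chr6:124304656-124330527 and Pf4 at chr5:90772435-90773383, all on the plus strand. Lyve1 at chr7:110850607-110863239 and Folr2 at chr7:101839988-101857194 share a chromosome and lie on its minus strand. Cbr2 at chr11:120729489-120732114 (minus strand) and Clec10a at chr11:70156197-70170834 (plus strand) share another. F13a1 is at chr13:36867178-37050244 and Stab1 at chr14:31139013-31168641, both on the minus strand. Stab1 overlaps Nt5dc2 on the opposite strand, and Folr2 and F13a1 overlap predicted genes on the opposite strand. Whether counting used the strand is not given in the sources used here, and how far these pairs share reads was not tested. The expected counts of Folr2 and F13a1 were fractional in 0 libraries, and those of Stab1 in 14. All 9 are annotated as protein-coding, and the values below are of whole genes.

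The sequence just before the start site is shown for 4 of the genes, because 8 members differed by over 10-fold between the sorted populations and Stab1 by about 2-fold or less. RefSeq (GRCm38.p6) promoters were given for 7 of the 9 members, as 9 windows. Each window printed here holds the 250 bases before the start, 5′ to 3′ on the gene's own strand. Capitals mark matches on either strand to GAGGAA (a core of sites for PU.1, the transcription factor of myeloid cells) or TGCTGA (a half-site for MAF factors). TGACTCA (AP-1) and CACGTG (the E-box of MITF and TFE factors) were also searched for and have no match in these 4 windows. Mrc1, coding for the mannose receptor, and Cbr2, coding for a carbonyl reductase, stand for the 8 members. Cd163 rose with them and has no match to any of the 4 motifs.
Mrc1, chr2:14229164-14229413, plus strand: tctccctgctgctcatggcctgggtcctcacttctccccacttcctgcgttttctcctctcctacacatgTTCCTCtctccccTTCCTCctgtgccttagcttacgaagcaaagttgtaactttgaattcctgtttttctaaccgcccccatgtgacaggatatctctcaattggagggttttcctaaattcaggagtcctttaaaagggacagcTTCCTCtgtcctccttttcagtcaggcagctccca
Cd163, chr6:124304401-124304650, plus strand: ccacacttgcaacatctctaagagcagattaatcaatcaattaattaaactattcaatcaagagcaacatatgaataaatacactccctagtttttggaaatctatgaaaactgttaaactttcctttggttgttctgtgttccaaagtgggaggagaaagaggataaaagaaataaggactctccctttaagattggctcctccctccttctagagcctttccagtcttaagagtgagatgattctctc
Cbr2, chr11:120732022-120732271, minus strand: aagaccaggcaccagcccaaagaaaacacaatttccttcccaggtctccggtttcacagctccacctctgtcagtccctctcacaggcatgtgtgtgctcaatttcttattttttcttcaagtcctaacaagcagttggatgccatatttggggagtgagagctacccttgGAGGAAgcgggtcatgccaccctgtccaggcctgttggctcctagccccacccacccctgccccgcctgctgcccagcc
Stab1, chr14:31168642-31168891, minus strand: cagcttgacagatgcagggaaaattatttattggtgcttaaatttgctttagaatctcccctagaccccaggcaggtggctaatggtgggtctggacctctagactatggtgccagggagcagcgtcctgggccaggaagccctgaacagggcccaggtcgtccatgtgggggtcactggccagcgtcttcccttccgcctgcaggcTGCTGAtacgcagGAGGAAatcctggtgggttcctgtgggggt

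GAGGAA occurred in 5 of the 9 windows and in 23.3% of the 32851 promoter windows of the same length over all genes. TGCTGA occurred in 3 of the 9 windows, those of Stab1 and of both Folr2 start sites, against 16.1% of all windows. TGACTCA occurred in 1 window, at one Folr2 start site, against 4.46%, and CACGTG in 0 windows, against 6.02%. The window of Stab1 thus holds the letters of GAGGAA and TGCTGA, and that of Mrc1 has 3 matches to GAGGAA. These are letter matches and describe the windows only.

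The first question was how the markers part between CD45hi and CD45lo cells. In chow-fed mice 8 of the 9 members were higher in CD45hi cells by edgeR's glmTreat at a 1.5-fold threshold (FDR under 0.05), by 11.3- to 24.7-fold, where 3.39% of all genes tested were called higher. In WD-fed mice the same 8 members were called, by 10.5- to 31.8-fold, where 4.01% of all genes were called higher. The member that did not pass on either diet was Stab1. With a replicate block 7 members were called on each diet, Folr2 being the one lost. The median log2 fold change of the 9 members was 3.61 on chow and 4.09 on the WD, beside 0.04 and 0.00 over all genes tested. In bulk libraries such as these, fewer cells of a type and less RNA per cell cannot be told apart.

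**Figure D1:**
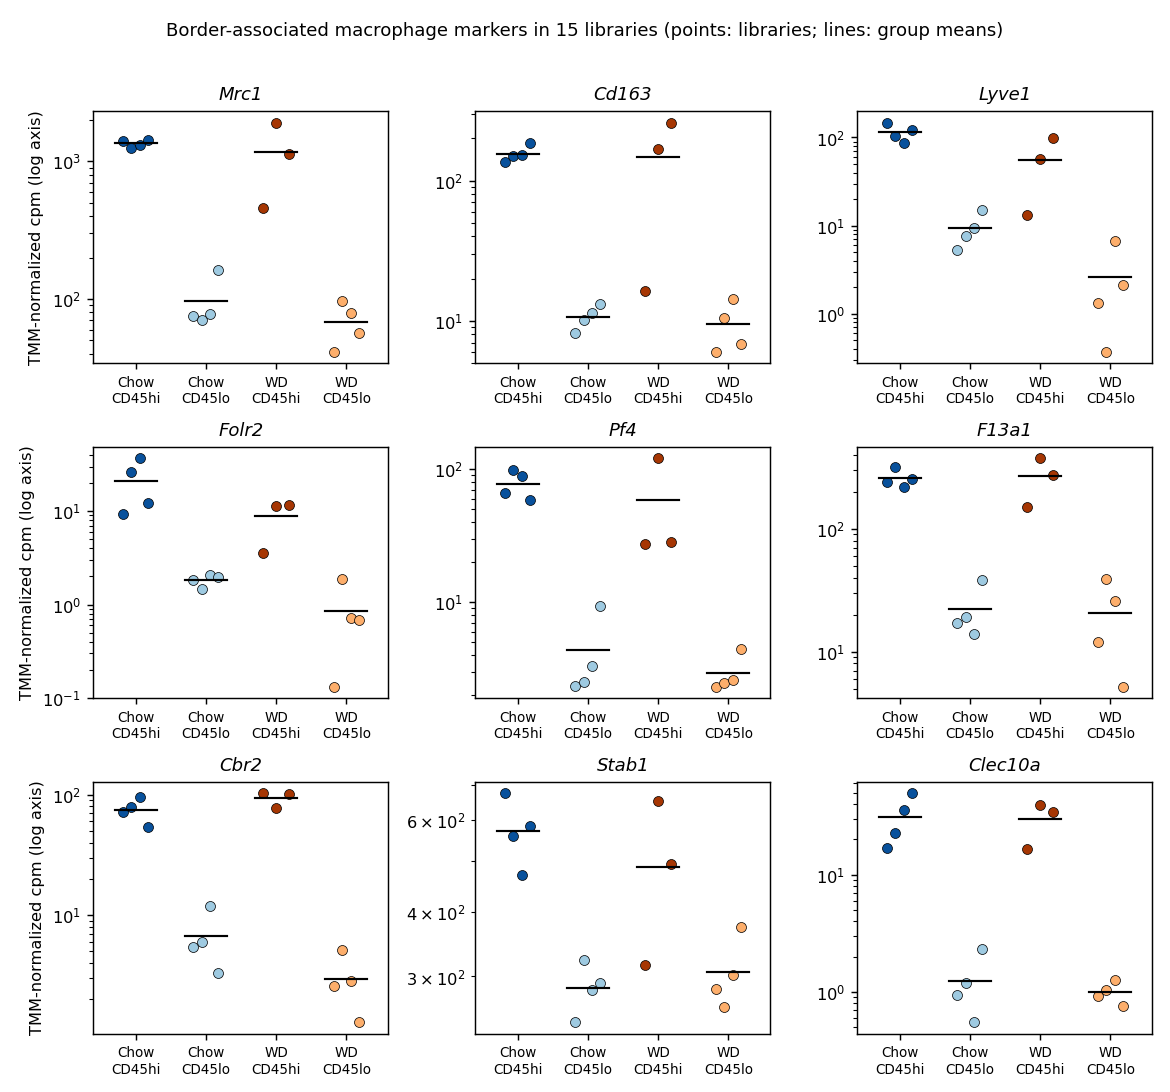
Normalized cpm (log axis, a separate scale for each gene) of the 9 markers in each of the 15 libraries, grouped by diet and CD45 level, with points for libraries and lines for group means. The CD45hi libraries lie above the CD45lo libraries of the same diet for every gene on chow and for 8 of 9 genes on the WD, the exception being Stab1.

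Mrc1, the mannose receptor, had the highest cpm of the 9 in CD45hi cells. It was at 1395, 1253, 1324 and 1432 cpm in the 4 chow CD45hi libraries and at 75.7, 70.0, 78.1 and 162 cpm in the 4 chow CD45lo libraries. In WD-fed mice it was at 456, 1912 and 1135 cpm in CD45hi and at 41.4, 96.9, 78.6 and 56.6 cpm in CD45lo cells. The groups did not overlap on either diet, and the lowest CD45hi library, at 456 cpm, was WD replicate 1. The log2 fold change was 3.81 (SE 0.393) on chow, with an edgeR FDR of 1.73e-05, and 4.09 (SE 0.409) on the WD, with an edgeR FDR of 1.19e-05.

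Cd163, the scavenger receptor for haemoglobin bound to haptoglobin, followed the same division. Its cpm was 135, 149, 152 and 184 in chow CD45hi and 8.24, 10.1, 11.3 and 13.3 in chow CD45lo libraries. On the WD it was 16.5, 169 and 259 in CD45hi and 6.03, 10.5, 14.4 and 6.89 in CD45lo libraries. WD CD45hi replicate 1 was close to the highest CD45lo value of 14.4 cpm, while all other CD45hi libraries were at 135 cpm or more. The log2 fold changes were 3.85 (SE 0.560, edgeR FDR = 0.000504) on chow and 3.97 (SE 0.580, edgeR FDR = 0.000517) on the WD, the latter 4.50 (SE 0.325) without WD CD45hi replicate 1 and 3.29 without WD CD45hi replicate 3. With limma-voom in place of edgeR the WD differences in Cd163 (FDR = 0.0831) and in Folr2 (FDR = 0.0639) missed the threshold, which left 6 members called.

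Lyve1 codes for a hyaluronan receptor that border-associated macrophages share with lymphatic endothelium. It was at 147, 104, 86.7 and 121 cpm in chow CD45hi libraries and at 5.35, 7.68, 9.47 and 15.2 cpm in chow CD45lo libraries. WD-fed mice had 13.2, 56.9 and 97.9 cpm in CD45hi and 1.31, 0.37, 6.75 and 2.12 cpm in CD45lo libraries. The 0.37 cpm of WD CD45lo replicate 2 rested on 5 counts, and WD CD45hi replicate 1, at 13.2 cpm, lay below the highest chow CD45lo library. On the log2 scale the difference was 3.61 (SE 0.687, edgeR FDR = 0.00558) on chow and 4.38 (SE 0.739, edgeR FDR = 0.00167) on the WD. The WD value for Lyve1 was 4.85 without WD CD45hi replicate 1, 3.71 without WD CD45hi replicate 3 and 5.46 without WD CD45lo replicate 3, and remained called in each case.

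Folr2, the beta form of the folate receptor, was the weakest of the 8 calls. Its cpm was 9.24, 26.2, 37.1 and 12.2 in chow CD45hi and 1.82, 1.45, 2.09 and 1.99 in chow CD45lo libraries. The WD values were 3.57, 11.4 and 11.7 in CD45hi and 0.13, 1.86, 0.71 and 0.68 in CD45lo libraries. The groups did not overlap, but the CD45lo values rested on 35 counts or fewer per library, and that of WD CD45lo replicate 1 on 2 counts. The difference was 3.52 (SE 0.746, edgeR FDR = 0.0125) on chow and 3.39 (SE 0.774, edgeR FDR = 0.0188) on the WD, on the log2 scale. The chow call was lost without chow CD45lo replicate 2 (edgeR FDR = 0.0562), and the WD call without WD CD45lo replicate 1, 3 or 4 (edgeR FDR = 0.0502 to 0.0628). Without WD CD45lo replicate 2 the WD difference in Folr2 was 4.11. CD45hi and CD45lo libraries also share replicate numbers in their titles and mouse-like numbers in their file names, and a block on either number ended the Folr2 call on both diets (edgeR FDR = 0.0514 on chow and 0.0704 on the WD by title, 0.0744 and 0.227 by file name).

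Clec10a, a galactose-binding C-type lectin that is also carried by some dendritic cells, had the largest fold change of the 9 on chow. It was at 17.0, 22.5, 35.5 and 49.5 cpm in chow CD45hi and at 0.94, 1.19, 0.55 and 2.33 cpm in chow CD45lo libraries. In WD-fed mice it was at 16.7, 39.1 and 34.5 cpm in CD45hi and at 0.92, 1.04, 1.26 and 0.76 cpm in CD45lo libraries. Every CD45hi library was at 16.7 cpm or more and every CD45lo library at 2.33 cpm or less. The log2 fold change was 4.62 (SE 0.573, edgeR FDR = 9.67e-05) on chow and 4.90 (SE 0.596, edgeR FDR = 7.54e-05) on the WD.

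Pf4 codes for platelet factor 4, a chemokine of platelets and megakaryocytes that border-associated macrophages also express. Its cpm was 65.7, 98.5, 88.2 and 58.4 in chow CD45hi and 2.35, 2.49, 3.32 and 9.36 in chow CD45lo libraries. WD libraries had 27.2, 122 and 28.3 in CD45hi and 2.29, 2.45, 2.58 and 4.47 in CD45lo libraries. The log2 fold change was 4.15 (SE 0.582, edgeR FDR = 0.000331) on chow and 4.32 (SE 0.605, edgeR FDR = 0.000328) on the WD, and the groups did not overlap. The WD CD45hi libraries fell into 2 low values and 1 high value, and without the high one, replicate 2, the log2 fold change was 3.23. On chow it was 4.83 without chow CD45lo replicate 4.

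F13a1, the catalytic subunit of coagulation factor XIII, is made by macrophages and monocytes and is present in platelets. It was at 239, 316, 218 and 255 cpm in chow CD45hi and at 17.2, 19.1, 14.01 and 38.2 cpm in chow CD45lo libraries. In WD-fed mice F13a1 was at 149, 377 and 273 cpm in CD45hi and at 12.0, 39.0, 25.6 and 5.15 cpm in CD45lo libraries. The lowest CD45hi library was well above the highest CD45lo library of either diet. F13a1 had a log2 fold change of 3.54 (SE 0.502, edgeR FDR = 0.000427) on chow and 3.71 (SE 0.521, edgeR FDR = 0.000386) on the WD.

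Cbr2, a carbonyl reductase found in several resident macrophage populations, had the largest fold change of the 9 on the WD. Its cpm was 72.1, 78.8, 95.01 and 54.3 in chow CD45hi and 5.47, 6.02, 11.9 and 3.29 in chow CD45lo libraries. The WD values were 103, 77.5 and 102 in CD45hi and 2.56, 5.12, 2.85 and 1.29 in CD45lo libraries. WD CD45hi replicate 1, the lowest CD45hi library for the other 8 members, was the highest for Cbr2. Cbr2 had a log2 fold change of 3.49 (SE 0.439, edgeR FDR = 0.000143) on chow and 4.99 (SE 0.483, edgeR FDR = 7.95e-06) on the WD.

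Stab1, the scavenger receptor stabilin-1, was abundant in both populations. It was at 676, 559, 470 and 585 cpm in chow CD45hi and at 245, 323, 283 and 291 cpm in chow CD45lo libraries. On the WD it was at 315, 654 and 494 cpm in CD45hi and at 284, 262, 303 and 374 cpm in CD45lo libraries. The chow groups did not overlap, while the WD groups did, through WD CD45hi replicate 1. Its log2 fold change was 1.00 (95% interval 0.60 to 1.41) on chow and 0.67 (95% interval 0.24 to 1.11) on the WD. Against the 1.5-fold threshold the edgeR FDR was 0.0959 on chow and 0.489 on the WD. Tested against no change (glmQLFTest) it passed on both diets, with an edgeR FDR of 0.00261 on chow and 0.049 on the WD. Without WD CD45hi replicate 1 the chow difference also passed the 1.5-fold test (edgeR FDR = 0.0388) and the WD difference did not (log2 fold change 0.91, edgeR FDR = 0.137).

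On chow every CD45hi library was above every CD45lo library for 9 of 9 members, where 8.26% of all genes tested showed that order. On the WD this held for 8 of 9 members, against 10.03% of all genes. For the 8 called members the mean CD45lo level was 4.02 to 8.88% of the mean CD45hi level on chow and 3.14 to 9.496% on the WD. For Stab1 it was 49.9% on chow and 62.7% on the WD. Both comparisons of the cell types share no library, and each member's fold changes on chow and on the WD lie side by side in the plot of fold changes.

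**Figure D2:**
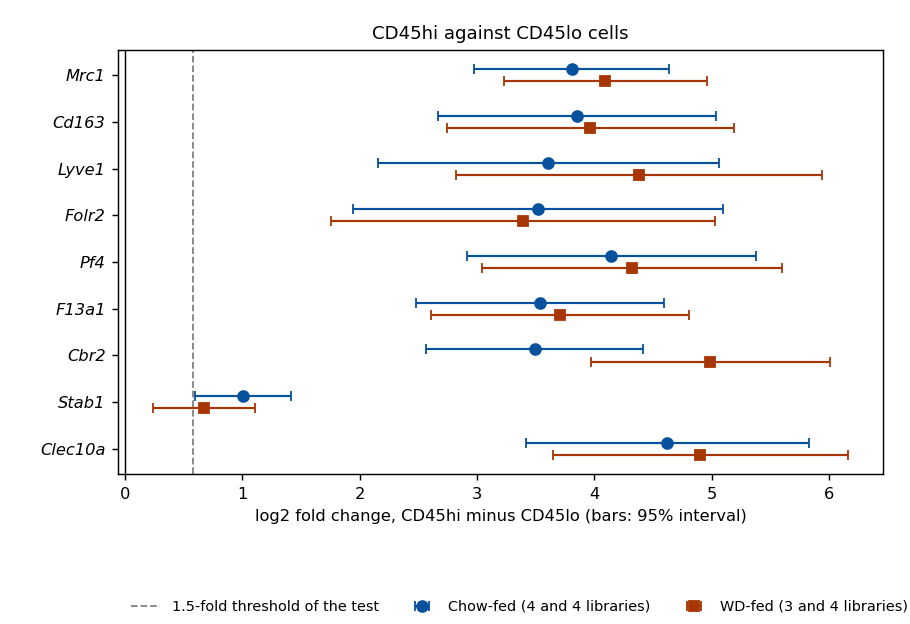
Log2 fold change of each marker between CD45hi and CD45lo cells, with its 95% interval, in chow-fed mice (circles) and WD-fed mice (squares), with the 1.5-fold threshold of the test as a dashed line. The values of 8 markers lie between 3.39 and 4.99, and those of Stab1 are 1.00 and 0.67.

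Levels of different genes were set side by side in TPM, the share of transcripts after division by length. In chow CD45hi cells the order of mean TPM was Stab1 (434 ± 113, SD, n = 4), Mrc1 (383 ± 13.6), Pf4 (256 ± 76.6), Cbr2 (176 ± 59.8), F13a1 (95.9 ± 19.98), Lyve1 (64.6 ± 13.99), Cd163 (49.7 ± 4.48), Clec10a (32.8 ± 16.9) and Folr2 (32.3 ± 20.4). Of the neighbours in that order only Mrc1 and Pf4 did not overlap between their libraries. Stab1, Mrc1, Pf4 and Cbr2 also led the order in WD CD45hi cells, at 522 ± 260, 324 ± 162, 179 ± 160 and 176 ± 34.1 TPM (SD, n = 3). The short transcript of Pf4, with an effective length near 421 bases, put it next after Mrc1 per length although its cpm was below that of F13a1 in every library.

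In CD45lo cells Stab1 stood alone at the top, at 281 ± 36.6 TPM on chow and 301 ± 50.4 TPM on the WD (SD, n = 4 each), above every other member in every library. Mrc1 came next at 35.9 ± 17.96 and 27.7 ± 10.6 TPM. The 8 others all had mean levels under 36 TPM in both CD45lo groups. Stab1 made up 28.5 ± 7.05% of the summed TPM of the 9 members in chow CD45hi and 73.9 ± 6.41% in chow CD45lo libraries. On the WD its share was 35.9 ± 3.31% in CD45hi and 80.5 ± 6.56% in CD45lo libraries. Mrc1 went the other way, with 25.3 ± 2.91% and 9.10 ± 3.01% on chow and 22.2 ± 3.31% and 7.52 ± 2.94% on the WD. The effective length that RSEM used varied between libraries for Stab1 (1060 to 2885 bases), Clec10a (673 to 2164), Cbr2 (338 to 825) and Mrc1 (4006 to 5182), and by at most 1.04 times for the other 5 members, so the TPM of these 4 genes also carry its estimate of isoform use.

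**Figure D3:**
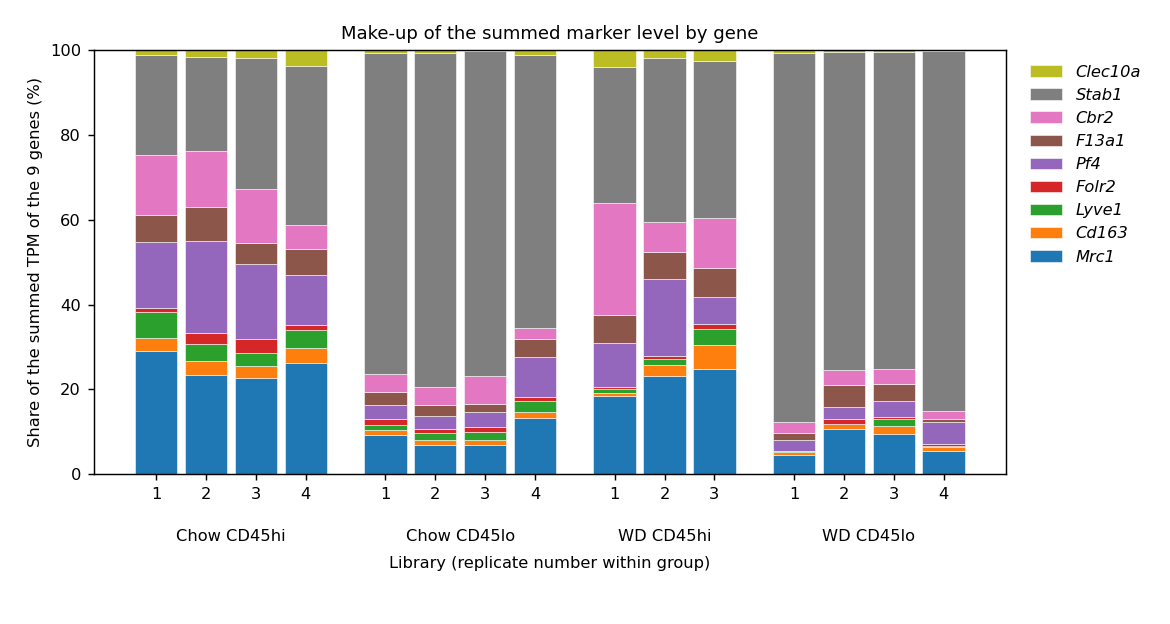
Share of each marker in the summed TPM of the 9 markers (percent, stacked bars) in each library, grouped by diet and CD45 level. Stab1 (grey) makes up 64.4 to 87.1% of the sum in CD45lo libraries and 22.2 to 38.6% in CD45hi libraries, and Mrc1 (blue) 4.52 to 13.4% and 18.5 to 29.0%.

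The summed TPM of the members was 1382 to 1653 in the chow CD45hi libraries and 306 to 470 in the chow CD45lo libraries. On the WD it was 807, 2021 and 1427 in the CD45hi libraries and 317 to 412 in the CD45lo libraries. The spread between libraries of one group differed between members. In chow CD45hi cells the coefficient of variation was 5.87% for Mrc1, 13.4% for Cd163 and 14.8% for Stab1, and 46.5% for Clec10a and 61.1% for Folr2. In WD CD45hi cells it was 62.4% for Mrc1 and 82.8% for Cd163 but 15.3% for Cbr2.

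That spread on the WD did not lie in the same library for every member. For Mrc1, WD CD45hi replicate 2 was at 1912 cpm, above the highest chow CD45hi library at 1432 cpm. For Pf4 replicate 2 was the only high value, at 122 cpm. Part of the spread lay with the library WD CD45hi replicate 1. It was the lowest of the 7 CD45hi libraries for 8 of the 9 members, where it was the lowest for 15.9% of all genes tested, and the highest for Cbr2, where it was the highest for 16.2% of all genes. Its level was 10.3% of the median of the other 6 CD45hi libraries for Cd163 and 13.02% for Lyve1. It was between 29.9% (Folr2) and 56.5% (F13a1) for Mrc1, Folr2, Pf4, Clec10a, Stab1 and F13a1, and 132% for Cbr2. For Pf4 and Clec10a the gap to the next library was small, 27.2 against 28.3 cpm and 16.7 against 17.0 cpm.

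Of the 27 tested genes in a list of other border-associated macrophage genes this library was the lowest for 10, more than its share of all genes, 15.9%, and the highest for 3. Its summed TPM was 7312 for the microglia list, 412 for the classical monocyte list and 2666 for the neutrophil list, each within the range of the other 6 CD45hi libraries. Its total count was the lowest of the 15 libraries, at 11951412, and its mitochondrial share, 18.6%, was at the median of the CD45hi libraries. The part of depth or of any cell type in the low values was not tested.

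**Figure D4:**
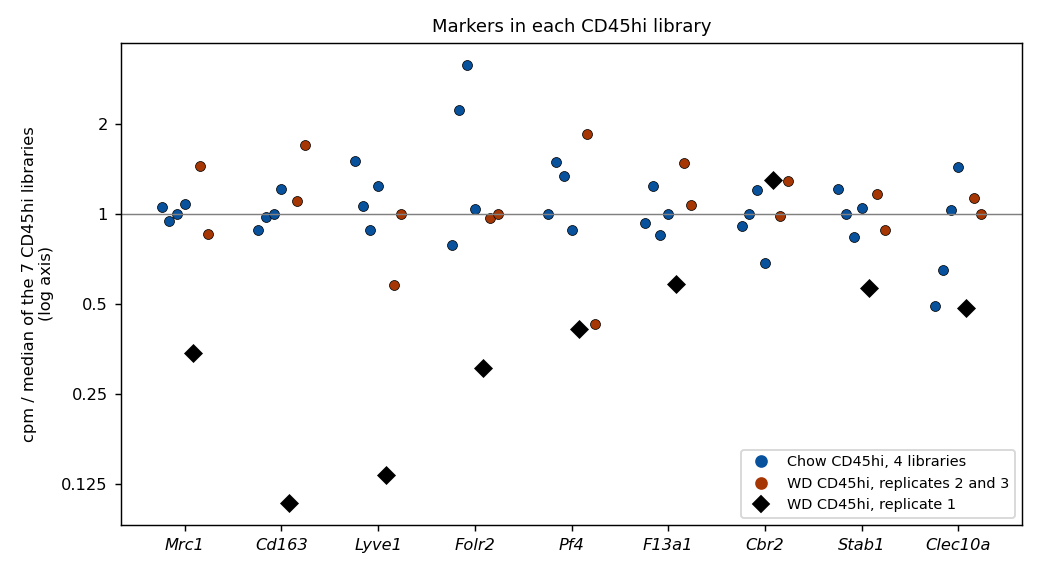
Level of each marker in each CD45hi library divided by the median of the 7 CD45hi libraries (log axis), with the 4 chow libraries in blue, WD replicates 2 and 3 in brown and WD replicate 1 as black diamonds. The diamonds lie below all other points for 8 markers and above them for Cbr2.

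Across the 7 CD45hi libraries the members were compared in pairs by Pearson's r of log2 cpm. The median over the 36 pairs was 0.588, from -0.670 (Cbr2 and Stab1) to 0.923 (Mrc1 and Stab1), and 28 pairs were above 0. Without WD CD45hi replicate 1 the median was -0.172 and 15 pairs were above 0, so most of the shared pattern rested on that library. Mrc1 and Pf4 were the pair with the highest r among the other 6 libraries, at 0.672. In CD45lo cells chow replicate 4 was the highest of the 8 libraries for 4 members, where it was the highest for 9.02% of all genes. The correlations are descriptions over few libraries that share their normalization.

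The second question was whether the WD changed the markers within each population. In CD45hi cells 0 of the 9 members were called by edgeR's glmQLFTest, where 0.254% of all genes tested were called, and the FDR was 0.408 to 0.977. None of the 9 had an unadjusted p under 0.05, which 2628 of all genes had by edgeR, and limma-voom and DESeq2 also called 0 members. The libraries of the diets overlapped for all 9. The log2 fold changes were -0.21 for Mrc1 (95% interval -1.01 to 0.59), -0.07 for Cd163 (-1.20 to 1.07), -1.04 for Lyve1 (-2.49 to 0.41) and -1.25 for Folr2 (-2.84 to 0.34). They were -0.40 for Pf4 (-1.57 to 0.78), 0.05 for F13a1 (-0.98 to 1.08), 0.33 for Cbr2 (-0.57 to 1.22), -0.23 for Stab1 (-0.67 to 0.21) and -0.05 for Clec10a (-1.16 to 1.06).

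Only for Stab1 did the interval stay within a 2-fold change in either direction, and for each of the other 8 members a 2-fold change in at least 1 direction lay within the interval. Without WD CD45hi replicate 1 the estimates moved to 0.17 for Mrc1, 0.46 for Cd163, -0.57 for Lyve1, -0.87 for Folr2 and -0.05 for Pf4. They were then 0.34 for F13a1, 0.26 for Cbr2, 0.00 for Stab1 and 0.24 for Clec10a, and still 0 members were called. For Pf4 the estimate was -1.49 without WD CD45hi replicate 2, and for Lyve1 -1.71 without WD CD45hi replicate 3. In the fit without WD CD45hi replicate 1, Lyve1 and Folr2 kept the lowest estimates of the 9. The chow CD45hi libraries had 86.7 to 147 cpm of Lyve1, and WD replicates 2 and 3 had 56.9 and 97.9 cpm.

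In CD45lo cells 0 of the 9 members were called, as were 0.0% of all genes tested by edgeR's glmQLFTest, with 123 genes at an unadjusted p under 0.05. DESeq2 called 4 genes and limma-voom 0, and neither called a member. The lowest values were those of Lyve1, with a log2 fold change of -1.81 (95% interval -3.20 to -0.42, unadjusted p = 0.0136 by edgeR), and Cbr2, with -1.17 (-2.05 to -0.29, unadjusted p = 0.0120 by edgeR). Both had an edgeR FDR of 1.0. Lyve1 was lower than every chow library in 3 of the 4 WD libraries, and Cbr2 also in 3 of 4. The other 7 had log2 fold changes from -1.12 (Folr2) to 0.10 (Stab1), and the libraries of all 9 overlapped between the diets.

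**Figure D5:**
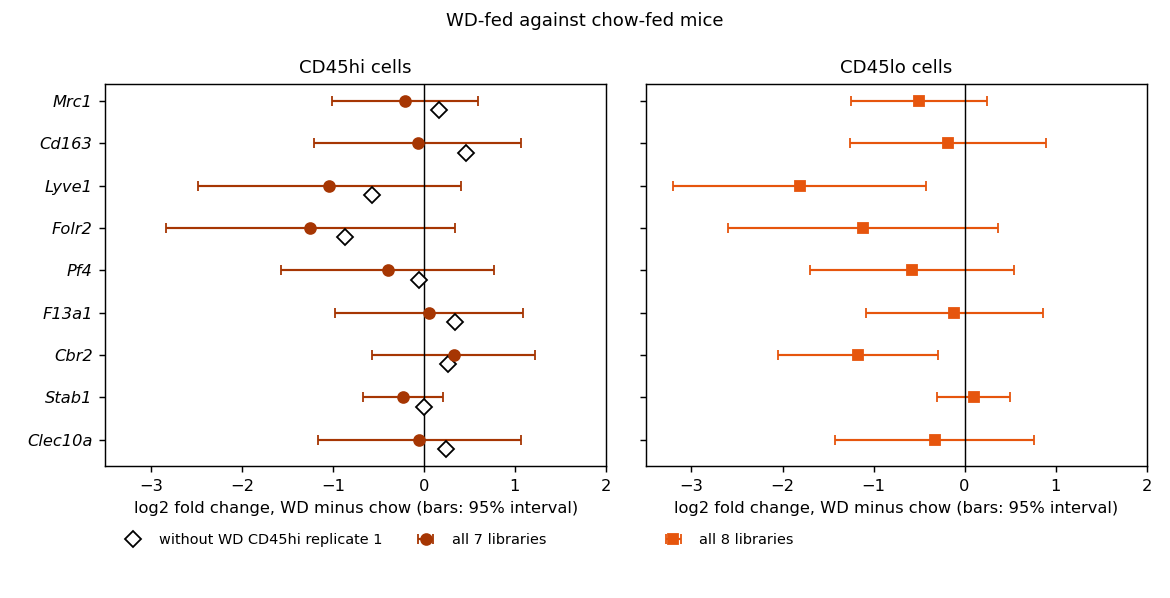
Log2 fold change of each marker between WD-fed and chow-fed mice in CD45hi cells (left) and CD45lo cells (right), with 95% intervals, and, as open diamonds, the CD45hi values without WD replicate 1. All 9 intervals include 0 in CD45hi cells, and 7 of 9 do in CD45lo cells, those of Lyve1 and Cbr2 being the exceptions before adjustment over all genes.

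Whether the difference between the populations depended on diet was tested as an interaction in the same fit. By edgeR's glmQLFTest 0 of the 9 members were called, as were 0.00668% of all genes (1515 genes at an unadjusted p under 0.05 by edgeR), and the FDR was 0.417 to 0.993. The largest interaction was that of Cbr2, at 1.497 on the log2 scale (95% interval 0.25 to 2.75, unadjusted p = 0.0217 and FDR = 0.417 by edgeR). It combines higher CD45hi and lower CD45lo means on the WD, 94.1 against 75.1 cpm and 2.96 against 6.66 cpm. Without WD CD45hi replicate 1 it was 1.43. The other 8 interactions lay between -0.33 (Stab1) and 0.78 (Lyve1).

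A wider list of 28 genes linked to border-associated macrophages gave a mixed picture. Of its 27 tested genes 10 were called higher and 0 lower in CD45hi cells on chow, where 3.39% of all genes were called higher. On the WD 13 were called higher and 0 lower, where 4.01% of all genes were called higher. Called or not, 24 of the 27 had a log2 fold change above 0 on chow and 23 on the WD. Marco, a scavenger receptor, was at 0 in all 15 libraries and was not tested. The median log2 fold change of the list was 3.40 on chow and 2.35 on the WD. Its 3 most abundant genes were Dab2, Maf and Hpgd. Dab2, an adaptor in endocytosis, was at 489 to 1223 cpm in chow CD45hi libraries and was 12.0-fold higher in CD45hi cells on the WD (edgeR FDR = 1.08e-05). Maf, a transcription factor of resident macrophages, was at 488 to 608 cpm in chow CD45hi and 539 to 647 cpm in chow CD45lo libraries, with log2 fold changes of -0.07 and -0.30 that were not called. Hpgd, the enzyme that breaks down prostaglandins, was likewise not called, at -0.17 and 0.36.

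The following genes of that list were chosen after their values were seen. Mgl2, a lectin closely related to Clec10a, was 45.3-fold higher in CD45hi cells on chow and 72.0-fold on the WD. Siglec1, the sialic acid receptor of several tissue macrophages, was 20.5-fold and 12.7-fold higher, and Cd36, a receptor for lipids and lipoproteins, 30.3-fold and 37.7-fold. Ltc4s, the synthase of leukotriene C4, lay the other way. It was at 6.13 to 14.96 cpm in WD CD45hi and 18.03 to 31.0 cpm in WD CD45lo libraries, with no overlap, but was not called (log2 fold change -1.35, edgeR FDR = 0.217). On chow its libraries overlapped, at 8.95 to 29.1 cpm in CD45hi and 18.5 to 28.95 cpm in CD45lo cells. Colec12, a scavenger receptor, averaged 15.4 cpm in WD CD45hi and 14.7 cpm in WD CD45lo cells and was not called on the WD either. On chow Colec12 was at 15.84 to 41.6 cpm in CD45hi and 10.7 to 15.71 cpm in CD45lo libraries, with no overlap. Between the diets 0 of the 27 genes were called by edgeR within CD45hi or within CD45lo cells. Mgl2 and Clec10a are close copies, as are the genes of the Cd209 family, and reads may have been divided between them.

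Lists for other cells in the gate gave the context of these values. Over all genes tested 0.588% were called lower in CD45hi cells on chow and 1.17% on the WD. The 12 microglia genes, among them P2ry12 and Sparc, were all called lower in CD45hi cells on chow and 9 of 12 on the WD. Their summed TPM was 6460 to 8193 in the CD45hi and 17350 to 22780 in the CD45lo libraries, so the low marker levels in CD45lo cells lay beside microglia genes at their highest. Called higher in CD45hi cells were 3.39% of all genes on chow and 4.01% on the WD. Of 10 neutrophil genes 7 were called higher in CD45hi cells on each diet, with S100a9 at 11.2-fold on chow and 10.8-fold on the WD and Cxcr2 at 22.5-fold and 16.0-fold. Of 10 classical monocyte genes 5 were called higher on chow and 3 on the WD, Ccr2 among them at 23.4-fold and 13.3-fold, and of 8 dendritic cell genes 2 on each diet, Cd209a among them at 17.1-fold and 17.5-fold. Other abundant genes of these lists overlapped between the populations. On chow Chil3 of the monocyte list was at 6.86 to 312 cpm in CD45hi and 45.6 to 109 cpm in CD45lo libraries. Ngp of the neutrophil list was at 55.2 to 1112 and 44.8 to 427 cpm. On the WD Zbtb46 of the dendritic cell list was at 0 to 11.3 and 0.76 to 5.64 cpm. The summed TPM of the monocyte list was 171 to 704 in CD45hi and 53.6 to 205 in CD45lo libraries, and that of the dendritic cell list 128 to 267 and 16.0 to 34.0. F13a1 and Clec10a are also expressed by monocytes and dendritic cells, and the part of those cells in their values was not tested.

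Platelets share Pf4 and F13a1 with border-associated macrophages, and lymphatic endothelium shares Lyve1. Of the 10 platelet and megakaryocyte genes 4 passed the filter and 0 were called, and Gp9 and Treml1 were lower in CD45hi than in CD45lo cells by value. The summed TPM of that list was 3.76 to 12.7 in CD45hi and 19.3 to 33.0 in CD45lo libraries, against 83.7 to 364 TPM of Pf4 in CD45hi libraries. Ppbp was at 0 in all libraries of 3 of the groups, WD CD45lo being the other, and Gp6 was at 0 in all 15 libraries. Of the 12 endothelial genes, which include those of lymphatic vessels, 8 passed the filter and 1, Flt1, was called higher in CD45hi cells, by 5.98-fold on chow and 5.51-fold on the WD. Ccl21a and Mmrn1 of lymphatic endothelium were at 0 in all 15 libraries, and the summed TPM of the list was 35.8 to 58.7 in CD45hi and 35.7 to 79.1 in CD45lo libraries. Prox1, also a gene of lymphatic endothelium, was not at 0. It was at 21.8 to 137 cpm in chow CD45hi and 37.6 to 77.3 cpm in chow CD45lo libraries. On the WD it was at 20.9 to 41.3 cpm in CD45hi and 38.5 to 46.4 cpm in CD45lo libraries. The part of such cells in the values of Lyve1 was not tested. Of the 8 meningeal fibroblast genes 4 passed the filter and 0 were called, with a summed TPM of 0.02 to 32.8 over the CD45hi libraries, and 0 of the 5 red blood cell genes were called.

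The other genes most like the members were sought over the 7 CD45hi libraries by Pearson's r with the mean standardized profile of the 9. Of 8380 genes compared the 8 highest, with r from 0.970 to 0.989, were Decr1, 1300002E11Rik, Slc7a1, Gm9769, Sowahc, Nop2, Trim2 and Nid2. Decr1 codes for a mitochondrial enzyme of fatty acid oxidation, Slc7a1 for a transporter of cationic amino acids, and Nid2 for a basement membrane protein. None of the 8 was in the list of other border-associated macrophage genes. Without WD CD45hi replicate 1 their r with the profile was 0.332 to 0.936, and 0 of the 8 stayed among the first 8. The likeness therefore rested on that library, and the 7 points share their normalization and depth.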

How the data were processed

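RNA of sorted CD11b+ CD45hi and CD45lo brain cells was sequenced from poly(A)-selected libraries (paired ends) on either of 2 instruments, and which library ran on which is not given in the sources used here. The authors trimmed the reads, aligned them to mm10 with Bowtie2 and deposited expected counts and TPM per gene from RSEM 1.2.12, after demultiplexing with bcl2fastq 2.18.0.12 (versions per the submitters' processing notes). The deposited FPKM values were not used. RSEM divides reads between similar genes and isoforms, so an expected count need not be whole. Here expected counts were rounded, genes that reached 1 cpm in 2 or more libraries were tested, and scaling was by TMM.

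One edgeR 4.0.16 quasi-likelihood model (R 4.3.3) was fitted to 15 libraries in 4 groups. CD45hi and CD45lo cells were compared by glmTreat at 1.5-fold, and diets and the interaction by glmQLFTest, with Benjamini-Hochberg FDR under 0.05 over all 14967 genes. limma 3.58.1 and DESeq2 1.42.0 served as alternatives, beside other scalings, filters, replicate blocks and leaving out each library. TPM were used as deposited for levels between genes. The library totals of 11951412 to 17912272 limit precision for the low members in CD45lo cells, and floors cover counting error only. The study describes the deposited values as given for each animal, and the names of the deposited files carry what look like mouse numbers, a different one for each library of a group and the same for 7 pairs of CD45hi and CD45lo libraries. The labels themselves do not tie libraries to mice, and if they were not separate animals the p-values would measure technical spread only. Tested on simulated data in which 200 of 14967 genes changed 8-fold in WD CD45hi cells, the model recovered 186 of them between WD CD45hi and CD45lo cells and 192 between diets in CD45hi cells, with 2 and 14 other calls. For the interaction it recovered 166, with 7 other calls. The changed genes were drawn only from those above a minimum mean cpm, and the simulated libraries were independent. A change of 8-fold is also larger than every diet estimate of the members. The recovery therefore does not measure the power for diet changes of their size.

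The members and gene lists were chosen with earlier results of these data known. Named genes were the 9 members, Ptprc and Itgam, the 3 most abundant genes of each list, any list gene called against the direction of its list, and the 8 genes most like the members. Named outside this rule, after their values were seen, were Mgl2, Siglec1, Cd36, Ltc4s and Colec12, and Marco, Ppbp, Gp6, Ccl21a and Mmrn1, which were at 0 in whole groups. Itgam, coding for the gated CD11b, was not called between the populations.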

Additional observations from a re-analysis of the deposited data

Results flagged for a closer look

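In 3 of the 27 sets of 4 libraries of one member and group that were examined, the highest or lowest library stood apart from the others by Dixon's 95% criterion, which chance meets in about 1 in 20 sets. Mrc1 was at 162 cpm in chow CD45lo replicate 4, against 70.0 to 78.1 cpm in the other 3 libraries. Pf4 was at 9.36 cpm in the same library, against 2.35 to 3.32 cpm. That library was the highest of the 8 CD45lo libraries for 4 of the 9 members, where it was the highest for 9.02% of all genes tested, and for 8 of the 27 other border-associated macrophage genes. Without it the log2 fold change between CD45hi and CD45lo cells on chow was 4.18 for Mrc1 and 4.83 for Pf4. Pf4 was also at 4.47 cpm in WD CD45lo replicate 4, against 2.29 to 2.58 cpm in the other 3 libraries of that group. In that library the summed TPM of the platelet and megakaryocyte list was 28.8, against 19.3 to 22.01 in the other 3, and that of the microglia list 17350. The part of these in the 3 values was not tested.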

How the results depend on the processing

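The 8 calls between CD45hi and CD45lo cells depended little on the settings tried, apart from those of Folr2 and Cd163. Stab1, the member not called in the main fit, passed under some settings. Without single libraries 7 to 9 members were called on chow and 7 to 8 on the WD, and 0 members were called for diet or the interaction under any setting. Stab1 passed at 1.5-fold on chow when only the compared groups were fitted (FDR = 0.0437 by edgeR), and Folr2 then missed on the WD (FDR = 0.106 by edgeR).

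The counts over all genes moved more. By glmQLFTest the 595 and 775 genes called between the populations on chow and the WD became 1202 and 1365, and without single libraries the latter were 513 to 920. For diet in CD45hi cells the 38 genes became 1030 by DESeq2, 60 without TMM, 252 with the newer edgeR form, 0 with the compared groups alone (843 at an unadjusted p under 0.05 by edgeR), 290 without chow CD45hi replicate 4 and WD CD45hi replicate 1 together (a pair that stood apart in an earlier principal component analysis), and 1 (without WD CD45lo replicate 2) to 286 (without WD CD45hi replicate 2) without single libraries. For diet in CD45lo cells 0 became 4 by DESeq2. For the interaction 1 gene became 188 by DESeq2, 0 by limma-voom or the newer edgeR form, 3 without that pair and 0 to 6 without single libraries. Without TMM the split was 396 higher and 153 lower on chow (507 and 88 with TMM) and 411 and 340 on the WD (600 and 175 with TMM), the median of all genes was -0.20 and -0.31, and Stab1 was at 0.77 and 0.36.

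Samples sharing a replicate number did not deviate together. The correlation of their deviations was -0.0217 to 0.0695 over 7 pairs by the titles and -0.000466 to 0.0695 by the numbers in the file names. With a replicate block by title 398 genes were called between the populations on the WD and 0 for the interaction. With a block by file name these were 353 and 0. For diet the title block was the bare replicate number, which joins different chow-fed and WD-fed mice and corrects for no known pairing. With it 2 genes were called for diet in CD45hi cells. No block by file name could be fitted for diet, whose groups share no such number. Folr2 lost its call with the block by title (FDR = 0.0514 on chow and 0.0704 on the WD by edgeR) and by file name (FDR = 0.0744 and 0.227 by edgeR).

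Signs of uncalled diet and interaction values turned as follows, on the log2 scale. For diet in CD45hi cells Clec10a was 0.03 by limma-voom, 0.17 with the title block and 0.55 without the pair, F13a1 -0.03 without TMM and -0.04 with the title block, and without the pair Mrc1 was 0.20, Cd163 0.56 and Stab1 0.01. For the interaction limma-voom gave -0.42 for Cd163, 0.49 for Folr2 and -0.24 for Pf4, and the newer edgeR form 0.05 for Folr2. The title block gave -0.03 for Mrc1, -0.59 for Cd163, 0.39 for Folr2, -0.20 for Pf4 and -0.20 for F13a1, the file-name block -0.15 for Mrc1, -0.64 for Cd163 and -0.53 for Pf4, and leaving out the pair 0.06 for Folr2. Without single libraries the diet values in CD45hi cells ranged from -0.76 to 0.17 for Mrc1, -0.74 to 0.46 for Cd163, -0.28 to 0.34 for F13a1, -0.50 to 0.00 for Stab1 and -0.28 to 0.27 for Clec10a. In CD45lo cells they ranged from -0.84 to 0.11 for Pf4, -0.63 to 0.29 for F13a1, -0.01 to 0.17 for Stab1 and -0.57 to 0.15 for Clec10a. The interactions ranged from -0.27 to 0.67 for Mrc1, -0.57 to 0.64 for Cd163, -0.49 to 0.59 for Folr2, -0.91 to 0.52 for Pf4, -0.23 to 0.68 for F13a1 and -0.20 to 0.60 for Clec10a.

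With cpm in place of TPM, which ignores length, Stab1 made up 65.9% of the members' sum in chow CD45lo and 22.7% in WD CD45hi cells, and Mrc1 50.9, 21.5, 48.0 and 16.4% in chow CD45hi, chow CD45lo, WD CD45hi and WD CD45lo cells. With cpm per kb at a fixed length, added after seeing the data, Stab1 made up 29.6% in WD CD45hi cells. Of the 8 genes most like the members 0 were shared by Spearman's rho, over all 15 libraries or, added after seeing the data, without WD CD45hi replicate 1. The cause of these changes was not tested.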
